A study of Homo sapiens with 12 samples.

Results

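MDA-MB-231 cells given the cytokine TNFα alone were set against untreated cells of the same line. The comparison used 6 of the 12 arrays of the study: 3 from cells given TNFα at 40 ng/ml for 24 h without apigenin (TNF replicates 1 to 3) and 3 from cells given no treatment (control replicates 1 to 3). MDA-MB-231 is an established human breast cancer line grown from a pleural effusion, and both groups were the unmodified line in the same high-glucose medium with serum. The study's other groups, apigenin at 40 µM without and with TNFα, entered only the shared estimate of spread and the comparison at the end. Of 53617 probe sets on the whole-transcript array, 23871 had exactly 1 gene symbol, and 20572 genes passed the filter on low values and were tested. The labels number the samples of a group without saying if they were separate cultures; the p-values therefore reflect the scatter of these arrays, possibly a technical one.

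TNFα binds TNFR1, which gathers an adaptor and ubiquitin ligase complex on its cytoplasmic tail. That complex switches on the IKK kinases, which free NF-κB dimers from their IκB inhibitors, and the dimers then enter the nucleus and bind κB motifs in promoters and enhancers. NF-κB targets include chemokines, cytokines, adhesion molecules and survival genes, and also the inhibitors that shut the pathway down again. MDA-MB-231 is a triple-negative, mesenchymal-like line known for a high resting NF-κB activity.

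The 6 arrays were alike in scale, with medians of 2.099 to 2.159 in control and 2.091 to 2.143 with TNFα on the deposited log2 scale. Correlations across genes ran from 0.984 to 0.987 within control, from 0.983 to 0.989 within TNFα and from 0.975 to 0.988 between the groups. On the first principal component of the 6 arrays, with 41.5% of the variance, control replicate 3 (9.38) lay among the TNFα arrays and TNF replicate 2 (-8.49) among the controls, so the groups overlapped there. The median of 194 small nucleolar RNA probe sets was 5.62 to 5.89 in control and ranged more widely with TNFα, at 5.26, 6.28 and 4.96 in replicates 1 to 3; with it as a covariate 150 genes were called in place of the 205 given next. All 11 markers listed for MDA-MB-231 lay above the 75th percentile of their array (3.31 to 3.53) on all 6 arrays, as did 1 of 15 leukocyte markers (CD68) and 1 of 12 fibroblast and endothelial markers (KDR). Of the 16 luminal markers, GATA3, KRT19, EPCAM, SPDEF and XBP1 lay above it, and 7 (ESR1, PGR, FOXA1, CDH1, AGR2, TFF1 and ELF5) were below the array median on at least 1 array.

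After 24 h of TNFα, 205 genes had changed (0.997% of those tested; limma, Benjamini-Hochberg adjusted p below 0.05). Of these, 160 rose (0.778% of genes) and 45 fell (0.219%). The counts of called list members given below stand against these shares. An unadjusted p below 0.05 was found for 11.6% of all genes. The median rise was 0.90 and the median fall -0.77 on the log2 scale, and 63 rises and 8 falls were at least 2-fold. In all 205 the 3 TNFα values lay wholly above or below the 3 control values, which was so for 13.6% of all genes tested. The rises made up 78.05% of the calls, and 60.9% after quantile normalization, which called 196 higher and 126 lower. Without control replicate 1, control replicate 2, TNF replicate 1 or TNF replicate 3 the count was 98, 131, 103 or 107, and without TNF replicate 2 it was 314. Fitted on the 6 arrays of the comparison only, 73 genes were called (63 higher, 10 lower), and without the arrays numbered 3 of all groups 85 (77 and 8). In all 6 fits that left out 1 of these arrays, 73 of the rises and 8 of the falls were called again. Where a gene named in these comparisons lost its call in such a fit, it is given with the arrays concerned and the largest adjusted p over the 6.

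**Figure D1:**
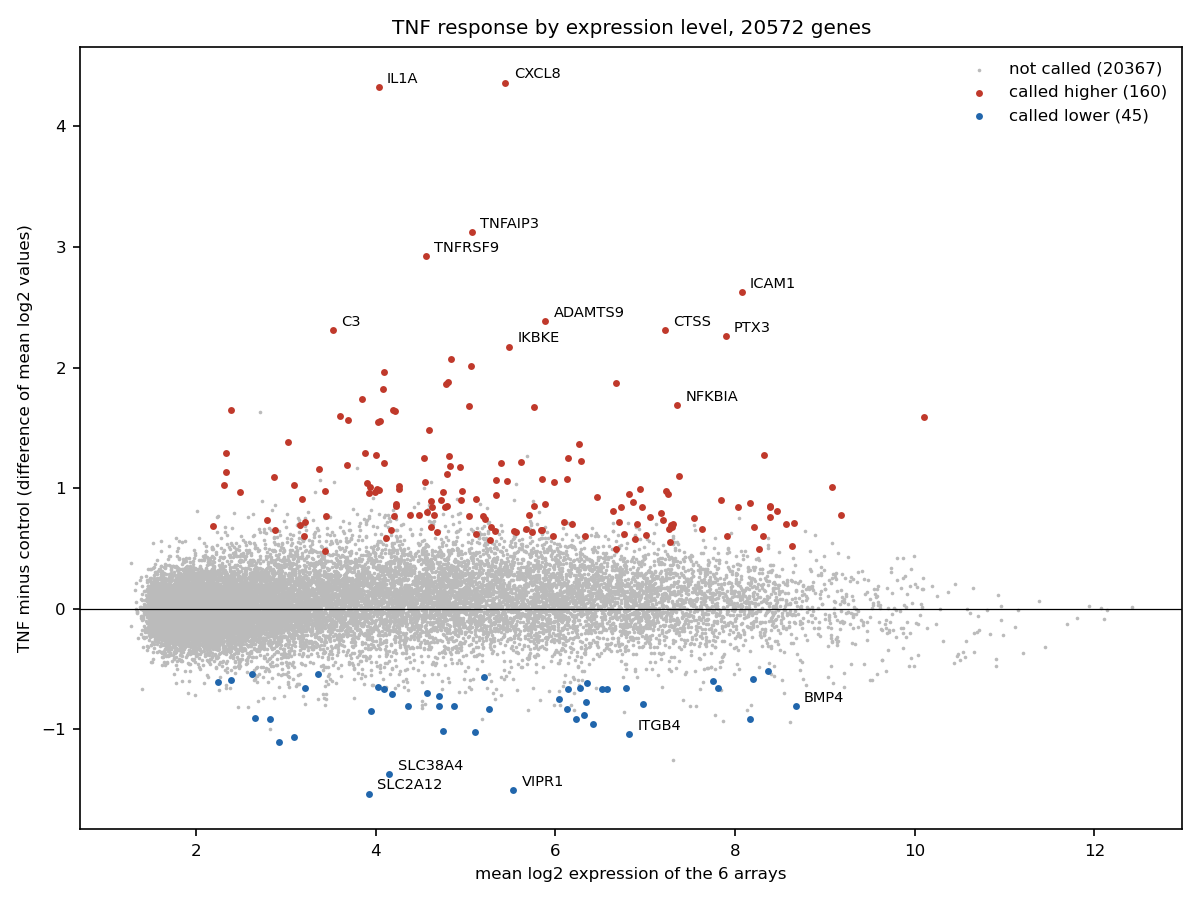
Difference of mean log2 values, TNF minus control (y axis), against the mean log2 expression of the 6 arrays (x axis) for each gene tested; red points are the 160 genes called higher, blue points the 45 called lower. The rises reach 4.36 (CXCL8) and the falls -1.53 (SLC2A12), and called genes lie at low and high levels of expression.

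Promoters of 5 strongly risen genes are shown because each holds a κB-type motif: CXCL8, TNFAIP3, TNFRSF9, ICAM1 and PTX3. They are the 250 bases before the annotated start in RefSeq (GRCh38.p14), written 5′ to 3′ on the gene's strand. Capitals mark a match, on either strand, to GGNNNTTCC or to the NF-κB consensus, and a stretch can match both.
CXCL8: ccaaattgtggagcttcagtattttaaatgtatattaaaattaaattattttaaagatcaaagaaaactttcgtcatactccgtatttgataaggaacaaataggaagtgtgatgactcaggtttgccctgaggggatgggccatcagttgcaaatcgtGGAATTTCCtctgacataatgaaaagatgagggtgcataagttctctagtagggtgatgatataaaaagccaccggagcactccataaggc
TNFAIP3: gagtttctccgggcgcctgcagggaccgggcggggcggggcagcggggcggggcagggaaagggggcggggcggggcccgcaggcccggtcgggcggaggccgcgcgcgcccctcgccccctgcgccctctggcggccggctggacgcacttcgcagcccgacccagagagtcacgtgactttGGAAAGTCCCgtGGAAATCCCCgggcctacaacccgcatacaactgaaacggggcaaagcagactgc
TNFRSF9: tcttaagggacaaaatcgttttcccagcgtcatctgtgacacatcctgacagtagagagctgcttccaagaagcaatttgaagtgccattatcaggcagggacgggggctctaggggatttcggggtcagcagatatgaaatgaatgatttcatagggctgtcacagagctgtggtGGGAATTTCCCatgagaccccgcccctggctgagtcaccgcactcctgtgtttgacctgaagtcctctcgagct
ICAM1: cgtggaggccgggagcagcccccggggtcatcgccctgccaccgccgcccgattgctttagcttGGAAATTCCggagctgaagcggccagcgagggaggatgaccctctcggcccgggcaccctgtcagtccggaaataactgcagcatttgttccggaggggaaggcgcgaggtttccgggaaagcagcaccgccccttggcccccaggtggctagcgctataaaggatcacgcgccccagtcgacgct
PTX3: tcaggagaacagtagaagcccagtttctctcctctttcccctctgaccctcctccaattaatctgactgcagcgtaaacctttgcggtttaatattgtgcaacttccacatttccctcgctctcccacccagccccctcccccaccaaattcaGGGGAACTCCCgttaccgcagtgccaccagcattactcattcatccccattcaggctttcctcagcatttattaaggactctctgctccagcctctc
The windows lie at chr4:73740319-73740568 (plus strand, CXCL8), chr6:137867009-137867258 (plus strand, TNFAIP3), chr1:7940840-7941089 (minus strand, TNFRSF9), chr19:10270870-10271119 (plus strand, ICAM1) and chr3:157436600-157436849 (plus strand, PTX3). Among the 14711 tested genes with a RefSeq promoter of 250 bases before to 50 after the start, 21.9% held GGNNNTTCC. It was in 51 of the 129 promoters of risen genes (39.5%), in 27 of the 53 of genes that rose at least 2-fold (50.9%) and in 5 of the 35 of fallen genes (14.3%). The NF-κB consensus was in 12.5% of all promoters, 26.4% of those of risen genes and 25.7% of those of fallen genes. The promoters of IL1A, IKBKE, IRAK2, CD83, TNIP1, GPRC5B and NFKB2, which also rose strongly, held a match to neither motif. No promoter was given for ADAMTS9, C3 or CTSS. The matches are descriptions of the letters, not of binding.

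Of 17 genes tested for the TNF receptors and their proximal complex, 2 rose and none fell (11.8%, against 0.997% of all genes called). In the fit on the 6 arrays only, 0 of the 17 were called. The list median was 0.11 against 0.02 for all genes, and 0.04 against -0.0039 after quantile normalization. The summed log2 values of the list overlapped between the groups (78.3 to 82.2 in control, 81.0 to 84.8 with TNFα). TNFRSF1A, the gene of TNFR1, was at 5.77, 5.75 and 6.06 in control and 5.82, 5.78 and 5.82 with TNFα (difference -0.05 ± 0.16 SE, adjusted p = 0.954), and the adaptor TRADD differed by -0.31 ± 0.13 (adjusted p = 0.376). The TNF gene itself was at 2.10 to 2.70 in control and 2.40 to 2.55 with TNFα, near the array medians. MLKL, the effector of necroptosis, rose from 4.85, 4.67 and 5.28 to 6.02, 5.78 and 6.20 (1.06 ± 0.17, adjusted p = 0.0062). CFLAR, which encodes the caspase-8 inhibitor c-FLIP, rose by 0.59 ± 0.12 (adjusted p = 0.0321) and lost its call without control replicate 1 or 2 or TNF replicate 1 or 3 (adjusted p up to 0.152). TNFRSF1B, RIPK1, TRAF2 and BIRC3 are not analysed here.

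Among 16 IKK and upstream kinases, IKBKE alone rose. It encodes IKKε, an IKK-related kinase, and went from 4.36, 4.09 and 4.74 to 6.58, 6.60 and 6.53 (2.17 ± 0.27, adjusted p = 0.00116). The core kinases were not called. CHUK (IKKα) differed by -0.04, IKBKB (IKKβ) by 0.09, TBK1 by 0.07 and MAP3K14 (NIK) by 0.03, with adjusted p from 0.887 to 0.971.

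Transcripts of NF-κB itself were raised, apart from RELA. Of the 6 subunit and cofactor genes, 5 rose (83.3%, against 0.997% of all genes called), with a list median of 0.93. NFKB2, the precursor of p52, went from 3.72, 4.17 and 4.70 to 6.07, 5.52 and 6.05 (1.68 ± 0.28, adjusted p = 0.00811). NFKB1, the precursor of p50, rose from 5.66, 5.31 and 5.58 to 6.69, 6.70 and 6.91 (1.25 ± 0.13, adjusted p = 0.000179). In both genes every TNFα array lay above every control array. RELB rose by 0.98 ± 0.14, REL by 0.89 ± 0.16 and the nuclear cofactor BCL3 by 0.87 ± 0.15. RELA, the p65 subunit, differed by 0.34 ± 0.14 (adjusted p = 0.375), with overlapping groups. NFKB2 lost its call without TNF replicate 1 (adjusted p = 0.0544), REL without control replicate 1 or 2 or TNF replicate 3 (up to 0.0752), and BCL3 without control replicate 1 or 2 or TNF replicate 1 or 3 (up to 0.0634).

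Of 18 feedback inhibitors of NF-κB tested, 8 rose (44.4%, against 0.997% of all genes called) and 10 were not called. All 18 differences were positive (median 0.57), where 54.9% of all genes had a positive difference. TNFAIP3, which encodes the ubiquitin-editing enzyme A20, went from 3.34, 3.67 and 3.53 to 6.76, 6.38 and 6.77, a rise of 3.12 ± 0.15 or 8.72-fold (adjusted p = 6.13e-08). Its partner TNIP1 rose from 5.60, 5.81 and 5.81 to 7.76, 7.58 and 7.50 (1.87 ± 0.12, adjusted p = 1.47e-06). The IκB genes NFKBIA and NFKBIE, whose proteins hold NF-κB in the cytoplasm, rose by 1.69 ± 0.15 and 1.67 ± 0.19. For each of these the lowest TNFα value exceeded the highest control value by more than 1 on the log2 scale. ZC3H12C, a CCCH zinc finger gene, rose by 1.07 ± 0.18 and lost its call without TNF replicate 1 (adjusted p = 0.0523). CYLD, a deubiquitinase of the pathway, differed by 0.56 ± 0.17 (adjusted p = 0.173). Without TNF replicate 1, 5 of the 18 were called, and 4 in the fit on the 6 arrays only.

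TRAF adaptors carry signals from TNF-family and interleukin-1 receptors. Of 10 tested, 3 rose, and the same number was called in each fit that left out 1 array. TRAF1 went from 2.96, 3.30 and 3.08 to 5.26, 4.98 and 4.97 (1.96 ± 0.20, adjusted p = 0.000179), TRAF3 rose by 1.19 ± 0.17 and the TRAF-interacting TIFA by 1.05 ± 0.14. TRAF6 differed by 0.41 (adjusted p = 0.528).

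Among the other receptors of the TNF family, 2 of 23 rose. TNFRSF9, the costimulatory receptor 4-1BB, went from 3.25, 2.96 and 3.08 to 5.88, 5.90 and 6.30, or 7.60-fold (2.93 ± 0.16, adjusted p = 1.86e-07). TNFRSF10B, the TRAIL death receptor DR5, rose from 5.28, 5.16 and 5.54 to 6.09, 6.10 and 6.11 (0.78 ± 0.12, adjusted p = 0.00569). Its ligand TNFSF10 (TRAIL) was 1 of 3 TNF-family ligands of 15 that rose (0.88 ± 0.12, adjusted p = 0.00253). The others were TNFSF15 (1.16 ± 0.21), lost without control replicate 1 or 2 or TNF replicate 1 or 3 (adjusted p up to 0.0966), and LTB (0.72 ± 0.15), lost in all 6 fits (up to 0.155). LTB was read from 1 of 8 probe sets. Another differed by -0.14, and all the rest by 0.72. CD40 and FAS differed by -0.05 and 0.28 and were not called.

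Of 17 CXC and CX3C chemokines tested, 4 rose (23.5%, against 0.997% of all genes called), led by CXCL8. It encodes interleukin-8 and went from 3.17, 2.97 and 3.65 to 7.55, 7.58 and 7.75, a rise of 4.36 ± 0.19 or 20.6-fold (adjusted p = 4.73e-08). CXCL10 and CXCL11, ligands of CXCR3, rose by 1.65 ± 0.21 and 1.60 ± 0.15. CXCL10 stood near the bottom of the scale in control, at 1.79, 1.26 and 1.66, and at 2.74, 3.19 and 3.72 with TNFα. CXCL1 rose by 1.27 ± 0.21 and lost its call without control replicate 1 (adjusted p = 0.053). CXCL2 was at 2.35, 3.25 and 2.94 in control and 4.11, 4.02 and 3.61 with TNFα, which did not pass the test (1.07 ± 0.30, adjusted p = 0.138). CXCL3, CXCL5, CXCL6 and CX3CL1 differed by -0.11 to 0.27 and CXCL9 by -0.15, none of them called.

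Only CCL2, the monocyte chemoattractant MCP-1, rose among 15 CC chemokines. It went from 1.77, 1.81 and 1.72 to 2.62, 2.90 and 3.19 (1.13 ± 0.14, adjusted p = 0.00114), from below the array medians to above them. CCL5 and CCL20, frequent NF-κB targets in other cells, differed by 0.20 and 0.26 with overlapping groups (adjusted p = 0.759 and 0.642). None of 12 chemokine receptors was called, and 0 had an unadjusted p below 0.05.

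Interleukin-1α was among the largest rises of the experiment. IL1A went from 1.80, 1.84 and 1.98 to 6.27, 6.07 and 6.25, from below the array medians to well above them (4.33 ± 0.15, adjusted p = 3.9e-09). IL1B was at 1.65, 1.99 and 2.07 in control and 4.80, 3.03 and 2.77 with TNFα; the groups did not overlap, but the TNFα arrays were far apart and the gene did not pass the test (1.63 ± 0.37, adjusted p = 0.0591). IRAK2, a kinase-like transducer of the interleukin-1 receptor, rose by 2.07 ± 0.17 (adjusted p = 2.17e-05). IRAK3, an inhibitor of the same step, rose by 1.19 ± 0.21 and lost its call without control replicate 1 or 2 or TNF replicate 1 or 3 (adjusted p up to 0.0683); its other probe set differed by -0.18. In all, 3 of 17 genes of the interleukin-1 family rose (17.6%, against 0.997% of all genes called). The receptor antagonist IL1RN differed by 0.04.

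Of 20 other cytokines and colony-stimulating factors, 5 rose. IL6 went from 2.82, 3.01 and 3.10 to 3.97, 4.65 and 5.54, with the TNFα arrays spread over more than 1 log2 unit (1.74 ± 0.29, adjusted p = 0.00927), and lost its call without control replicate 1 (0.0571). IL32, an inflammatory cytokine, rose by 1.56 ± 0.16 and IL24, of the interleukin-10 family, by 1.48 ± 0.17, both called in all 6 fits. CSF1, the macrophage growth factor, rose by 0.87 ± 0.16 and lost its call without control replicate 1 or TNF replicate 1 or 3 (adjusted p up to 0.102). IL23A rose by 1.09 ± 0.21 and lost its call without control replicate 1 or 3 or TNF replicate 1 or 3 (up to 0.133). LIF differed by 0.55 (adjusted p = 0.127). Without control replicate 1, 2 of the 20 were called. Of 21 cytokine receptors IL7R rose (0.89 ± 0.15) and LIFR fell (-0.67 ± 0.14). IL7R lost its call without control replicate 1 or 2 or TNF replicate 1 or 3 (up to 0.0605) and LIFR in all 6 fits (up to 0.155). CSF2 and IL33 are not analysed here.

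**Figure D2:**
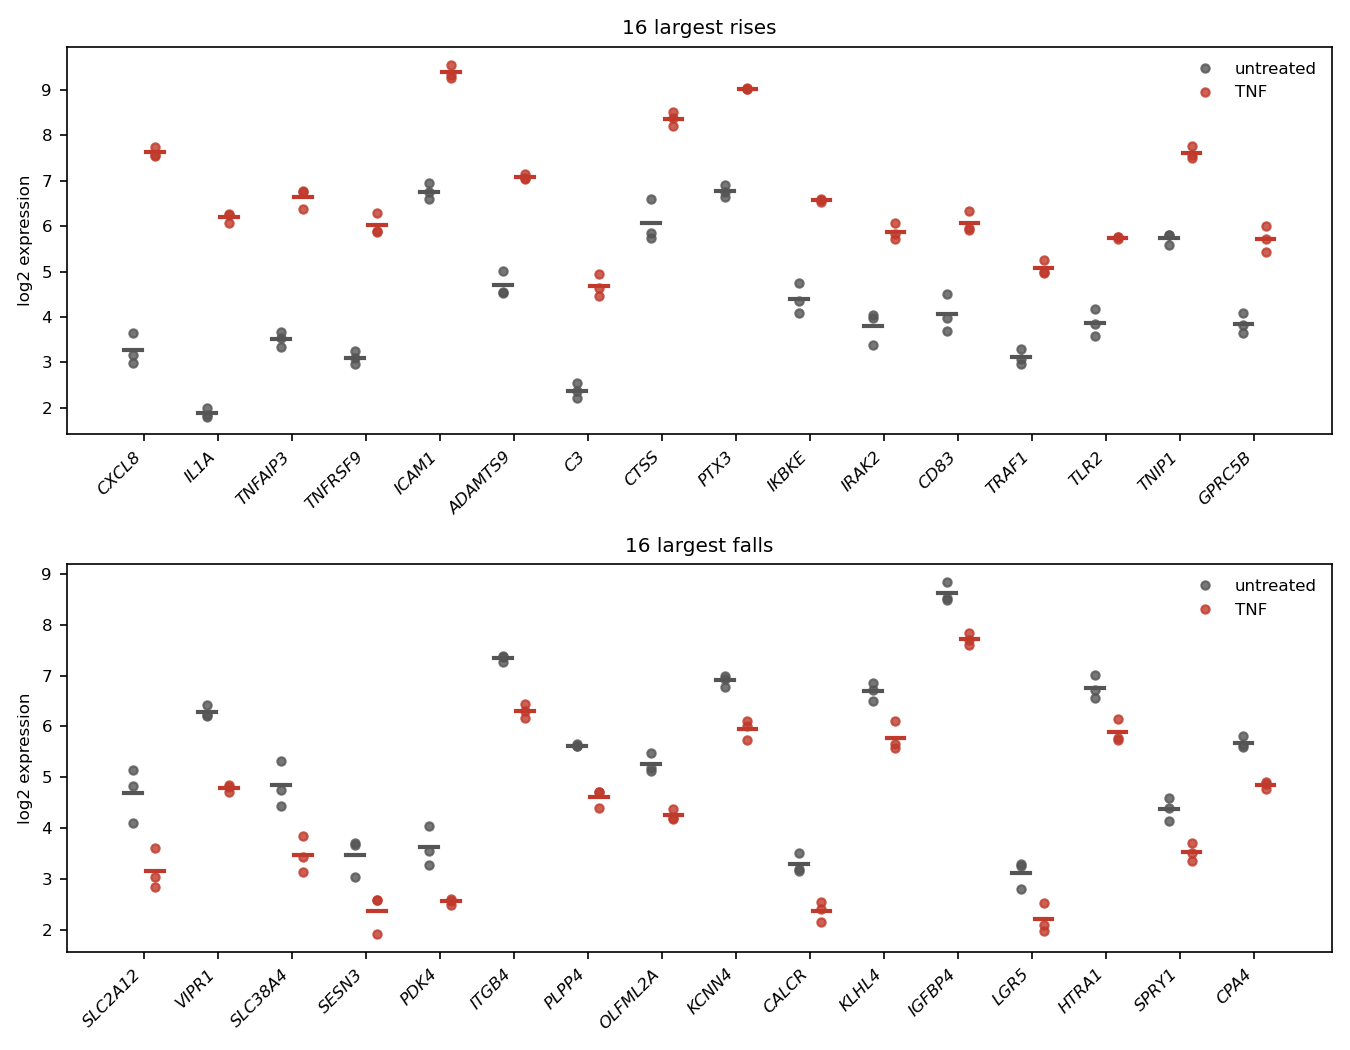
Log2 expression (y axis) on each of the 3 untreated (grey) and 3 TNFα (red) arrays for the 16 largest rises (top) and the 16 largest falls (bottom) among called protein-coding genes whose groups do not overlap; points are arrays and bars are group means. For CXCL8 the control arrays sit between 2.97 and 3.65 and the TNFα arrays between 7.55 and 7.75.

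Surface molecules for leukocyte contact rose in 4 of 22 cases (18.2%, against 0.997% of all genes called). ICAM1, the ligand of leukocyte β2 integrins, went from 6.59, 6.75 and 6.94 to 9.33, 9.56 and 9.27, or 6.17-fold (2.63 ± 0.13, adjusted p = 1.22e-07). CD83, a marker of mature dendritic cells, rose from 3.98, 3.69 and 4.50 to 5.92, 5.97 and 6.33 (2.02 ± 0.20), and ICAM2 by 1.05 ± 0.17. CD274, the checkpoint ligand PD-L1, rose by 0.63 ± 0.13 (adjusted p = 0.0403), a call that held only without control replicate 3 among the 6 fits (adjusted p up to 0.192). VCAM1, an endothelial target of TNFα, stayed at 1.77 to 2.22 on all 6 arrays.

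No gene of class I antigen processing was called among 21 tested. All 21 differences were positive (median 0.19), where 54.9% of all genes had a positive difference. An unadjusted p below 0.05 was found for 5 of them, against 11.6% of all genes. The peptide transporter TAP1 differed by 0.47 ± 0.13 (adjusted p = 0.141), HLA-B by 0.44 ± 0.18 (0.363), the immunoproteasome subunit PSMB9 by 0.22 (0.623) and B2M by 0.00 (0.998). Among 21 class II and cathepsin genes, CTSS rose. This lysosomal protease, which trims the class II invariant chain, went from 5.85, 5.74 and 6.60 to 8.22, 8.38 and 8.52 (2.31 ± 0.22, adjusted p = 9.37e-05).

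In innate defence a few genes rose strongly and most were not called. C3, the central complement component, went from 2.22, 2.54 and 2.36 to 4.64, 4.46 and 4.95, or 4.97-fold (2.31 ± 0.14, adjusted p = 6.17e-07), and no other of 20 complement genes was called. The soluble pattern receptor PTX3 rose from 6.75, 6.65 and 6.91 to 9.02, 9.02 and 9.04 (2.26 ± 0.13, adjusted p = 3.67e-07). The acute-phase genes SAA1 and SERPINA1 rose by 0.99 ± 0.14 and 0.97 ± 0.14, which made 3 of 17 in that list. TLR2, a receptor for bacterial lipoproteins, rose from 3.58, 3.84 and 4.18 to 5.71, 5.76 and 5.76 (1.88 ± 0.16, adjusted p = 2.6e-05). NLRP3, the inflammasome sensor, rose by 0.97 ± 0.16 and lost its call without control replicate 1 or TNF replicate 3 (adjusted p up to 0.0515). These were the 2 of 21 pattern receptor and inflammasome genes that were called.

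Of 66 interferon-stimulated genes, 1 rose and 1 fell (3.03%, against 0.997% of all genes), and the median was 0.06. Quantile normalization called 4 of them. The largest difference of the list, that of the GTPase gene GBP4, did not pass the test (1.17 ± 0.33, adjusted p = 0.131). SLFN5 rose by 0.67 ± 0.15 and lost its call in every fit except that without control replicate 3 (adjusted p up to 0.195). SAMD9 fell by 0.62 on the log2 scale and lost its call in all 6 fits (up to 0.113). The antiviral genes IFIT1 and ISG15 differed by -0.65 and -0.26, MX1 by 0.33 and OAS1 by -0.12, none of them called. None of 10 interferon regulatory factors was called (1 at an unadjusted p below 0.05), and IRF1 differed by 0.14 (adjusted p = 0.791). STAT3 rose by 0.60 ± 0.13 (adjusted p = 0.0498), 1 of 21 JAK, STAT and SOCS genes, and lost its call without control replicate 1 or 2 or TNF replicate 1 or 3 (up to 0.234).

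Of 15 survival genes, CFLAR and IER3 rose (13.3%, against 0.997% of all genes), and the list median was 0.29. IER3, an early response gene that limits apoptosis, went from 7.97, 8.05 and 8.02 to 8.62, 8.69 and 8.54 (0.60 ± 0.10, adjusted p = 0.0115) and lost its call without control replicate 1 or TNF replicate 1 (up to 0.062). Neither gene was called without control replicate 1 or TNF replicate 1, and 5 survival genes were called in the fit with the most. BIRC2 (cIAP1) differed by 0.58 ± 0.14 (adjusted p = 0.0738), and BCL2A1 by 0.32 (0.404). Of 20 death effectors, BID, which links caspase-8 to mitochondria, rose by 0.65 ± 0.14; it was called again only without control replicate 3 (adjusted p up to 0.199).

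**Figure D3:**
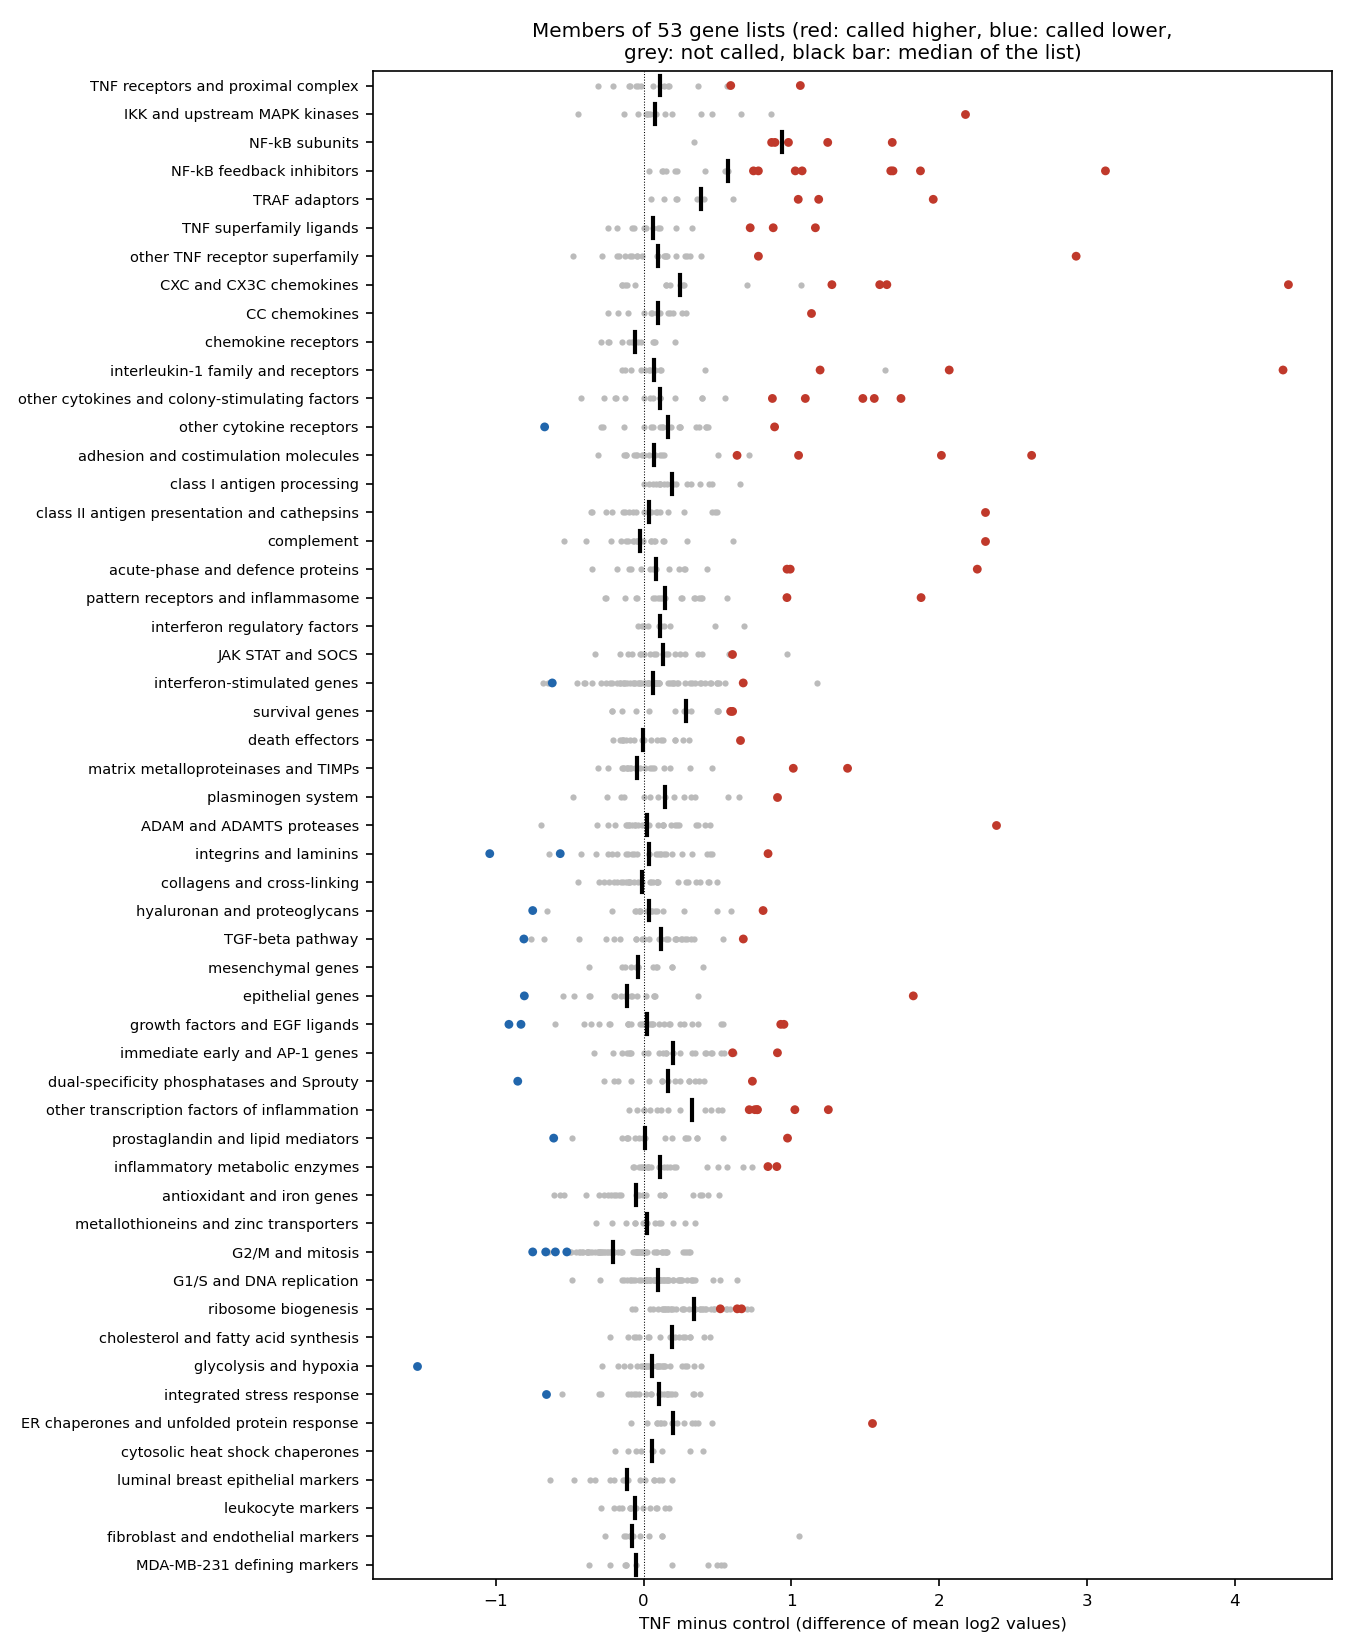
Difference of mean log2 values, TNF minus control (x axis), of each tested member of 53 gene lists (rows); red points are members called higher, blue points members called lower, grey points members not called, and black bars the list medians. The NF-κB subunits have the median 0.93 and the feedback inhibitors 0.57, while interferon-stimulated genes centre on 0.06.

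Among proteases that remodel the matrix, 3 rose clearly. ADAMTS9, a secreted protease that cleaves proteoglycans, went from 4.52, 4.55 and 5.02 to 7.06, 7.04 and 7.16, or 5.23-fold (2.39 ± 0.15, adjusted p = 1.34e-06), the only call among 28 ADAM and ADAMTS genes. The gelatinase MMP9 rose from 2.37, 2.38 and 2.25 to 3.51, 3.57 and 4.06 (1.38 ± 0.14, adjusted p = 0.000174) and the collagenase MMP1 from 8.47, 8.54 and 8.71 to 9.54, 9.75 and 9.46 (1.01 ± 0.14, adjusted p = 0.0029). Both were called in all 6 fits, and the other 21 of the 23 matrix metalloproteinase and TIMP genes were not. PLAUR, the urokinase receptor and the only call among 15 plasminogen system genes, rose by 0.90 ± 0.12 (adjusted p = 0.00157), while its ligand PLAU differed by 0.21 (0.512).

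Of 28 integrins and laminins, 1 rose and 2 fell. ITGB4, the β4 integrin of hemidesmosomes, fell from 7.39, 7.27 and 7.36 to 6.31, 6.43 and 6.16 (-1.04 ± 0.11, adjusted p = 0.000304). The laminin chain LAMB3 rose by 0.84 ± 0.15 and LAMA5 fell (-0.56 ± 0.11). LAMB3 lost its call without control replicate 1 or 2 or TNF replicate 1 (adjusted p up to 0.0778), and LAMA5 in every fit except that without TNF replicate 2 (up to 0.131). The heparan sulfate proteoglycan SDC4 rose by 0.81 ± 0.11 (adjusted p = 0.00151), the only rise among 18 hyaluronan and proteoglycan genes. No gene was called among 31 collagen and cross-linking genes, 8 of which had an unadjusted p below 0.05 (11.6% of all genes did).

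Of 19 epithelial genes, 1 rose and 1 fell (10.5%, against 0.997% of all genes). CLDN1, a tight junction claudin, rose from 3.19, 3.04 and 3.29 to 4.78, 5.05 and 5.17 (1.82 ± 0.12, adjusted p = 1.93e-06). KRT80, a keratin, fell (-0.81 ± 0.15, adjusted p = 0.0209) and lost its call without control replicate 1 or TNF replicate 2 or 3 (up to 0.109). None of 15 mesenchymal genes was called (2 at an unadjusted p below 0.05). VIM differed by 0.19, SNAI1 by -0.12 and CDH1 by -0.12. In the TGF-β pathway TGFBR2, the type II receptor, rose by 0.68 ± 0.12 and BMP4, a secreted ligand, fell from 9.09, 9.07 and 9.08 to 8.28, 8.25 and 8.29 (-0.81 ± 0.10, adjusted p = 0.00121), as the 2 calls of 27. TGFBR2 lost its call without control replicate 1 or 2 or TNF replicate 1 or 3 (up to 0.0804).

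Of 32 growth factors and related genes, 2 rose and 2 fell, and all 4 were called in all 6 fits. VEGFC, the lymphatic growth factor, rose from 6.65, 6.67 and 7.01 to 7.64, 7.60 and 7.94 (0.95 ± 0.14, adjusted p = 0.00285), and the EGF receptor ligand HBEGF by 0.93 ± 0.13. The IGF-binding proteins IGFBP4 and IGFBP1 fell, by -0.91 ± 0.14 and -0.83 ± 0.13.

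Further transcription factors linked to inflammation rose in 6 of 20 cases (median 0.33). CEBPB, a regulator of acute-phase genes, went from 3.83, 3.92 and 3.73 to 4.69, 4.42 and 4.68 (0.77 ± 0.11, adjusted p = 0.00395), and ETS1 rose by 0.75 ± 0.12. These were called in all 6 fits. NFATC2 (1.25 ± 0.27) and HIVEP1 (0.77 ± 0.16) lost their calls without control replicate 1 or 2 or TNF replicate 1 or 3, and POU2F2 (1.02 ± 0.21) without control replicate 1 or 2 or TNF replicate 2 or 3, with adjusted p up to 0.225, 0.168 and 0.172. Among 27 immediate early and AP-1 genes, JUNB rose by 0.91 ± 0.12 (adjusted p = 0.00157) alongside IER3, while JUN, FOS and EGR1 differed by 0.47, 0.20 and 0.46 and were not called. MYC differed by 0.61 ± 0.14 without passing the test (adjusted p = 0.053).

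Enzymes of inflammatory mediators gave isolated changes. PTGS2 (COX-2) rose from 2.75, 2.86 and 3.22 to 3.82, 3.71 and 4.24 (0.97 ± 0.18, adjusted p = 0.0203), and HPGD, which breaks prostaglandins down, fell (-0.61 ± 0.13, adjusted p = 0.0402). PTGS2 lost its call without control replicate 1 or 2 or TNF replicate 1 or 3 (up to 0.109) and HPGD in all 6 fits (up to 0.187). GCH1, the first enzyme of tetrahydrobiopterin synthesis, rose by 0.90 ± 0.13 and was called in all 6 fits. ASS1, which makes argininosuccinate, rose by 0.84 ± 0.14 and lost its call without control replicate 1 or TNF replicate 1 (up to 0.0504). ERN1, the unfolded protein sensor IRE1α, rose from 3.25, 2.82 and 3.71 to 4.81, 4.61 and 4.99 (1.55 ± 0.20, adjusted p = 0.00145), the only call among 17 genes of that response. DUSP10, a phosphatase of stress kinases, rose by 0.74 ± 0.13 and lost its call without control replicate 2 or TNF replicate 1 or 3 (up to 0.0763). None of 25 antioxidant and iron genes was called, though 10 had an unadjusted p below 0.05 (11.6% of all genes did) and quantile normalization called 4. None was called among 19 genes of cholesterol and fatty acid synthesis, 9 cytosolic heat shock chaperones and 13 metallothionein and zinc transporter genes, of which 4, 1 and 2 had an unadjusted p below 0.05. SOD2 is not analysed here.

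GPRC5B, an orphan G protein-coupled receptor on none of the lists, rose from 3.65, 3.82 and 4.09 to 5.71, 5.44 and 6.01 (1.87 ± 0.19, adjusted p = 0.000173).

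The falls were fewer and smaller than the rises. VIPR1, a receptor of vasoactive intestinal peptide, fell from 6.23, 6.20 and 6.42 to 4.71, 4.80 and 4.84, or 2.83-fold (-1.50 ± 0.13, adjusted p = 2.67e-05). The sugar transporter SLC2A12 fell from 4.83, 4.10 and 5.15 to 2.84, 3.04 and 3.60 (-1.53 ± 0.25, adjusted p = 0.00842) and lost its call without control replicate 1 or TNF replicate 1 (up to 0.0586). The amino acid transporter SLC38A4 fell (-1.37 ± 0.29, adjusted p = 0.0437), as did SESN3, a sestrin (-1.11 ± 0.24, adjusted p = 0.0498). SLC2A12 was the only call among 31 glycolysis and hypoxia genes. SLC38A4 and SESN3 were called again only without control replicate 2 (up to 0.17 and 0.216). PDK4, which inhibits pyruvate dehydrogenase, fell (-1.06 ± 0.21) and lost its call without control replicate 1 or 3 or TNF replicate 1 or 3 (up to 0.119).

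SPRY1, an inhibitor of receptor tyrosine kinase signalling, went from 4.39, 4.14 and 4.59 to 3.51, 3.36 and 3.70 (-0.85 ± 0.13, adjusted p = 0.00617). The calcitonin receptor gene CALCR (-0.92 ± 0.15) and the lipid phosphatase gene PLPP4 (-1.02 ± 0.17) fell as well and were called in all 6 fits. The potassium channel KCNN4 (-0.96 ± 0.16) lost its call without control replicate 1 or TNF replicate 3 (up to 0.053), and OLFML2A (-1.01 ± 0.17) without TNF replicate 3 (0.0564). The R-spondin receptor LGR5 (-0.91 ± 0.16) and KLHL4 (-0.92 ± 0.16) lost theirs without control replicate 1 or TNF replicate 1 (up to 0.085 and 0.0777). The serine protease HTRA1 (-0.88 ± 0.17) lost its call without control replicate 2 or 3 or TNF replicate 1 or 2 (up to 0.112), and the carboxypeptidase CPA4 (-0.84 ± 0.15) without control replicate 1 or TNF replicate 1 or 3 (up to 0.0775). DDIT4, an mTOR inhibitor and the only call among 25 genes of the integrated stress response, fell (-0.66 ± 0.14) and was called again only without control replicate 2 (up to 0.14).

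Mitotic genes leaned downward by small amounts. Of 70 genes of G2/M and mitosis, 4 fell and none rose (5.71% called, against 0.997% of all genes). A positive difference was found for 18 of the 70, against 54.9% of all genes, and the median was -0.20 against 0.02 for all genes. Summed over the 70, the log2 values overlapped slightly, at 482.4 to 496.5 in control and 468.6 to 483.2 with TNFα. For the TNFα response in cells with apigenin the list median was 0.05, against 0.03 for all genes. HMMR, a spindle and hyaluronan-binding protein, went from 6.30, 6.31 and 6.64 to 5.61, 5.44 and 5.96 (-0.75 ± 0.15, adjusted p = 0.0259). SPC24 and CENPE, of the kinetochore, and the spindle protein DLGAP5 fell as well (-0.66 ± 0.13, -0.60 ± 0.12 and -0.52 ± 0.10). No mitotic gene was called without control replicate 1 or TNF replicate 1, and at most 3 were called in the other fits that left out 1 array; quantile normalization called 9. HMMR lost its call in every fit except that without TNF replicate 3 (up to 0.125) and DLGAP5 in all 6 (up to 0.104). CENPE lost its call without control replicate 1 or 2 or TNF replicate 1 or 3 (up to 0.137), and SPC24 without control replicate 1 or 3 or TNF replicate 1 or 3 (up to 0.146). The proliferation marker MKI67 differed by 0.31 (adjusted p = 0.348), PLK1 by -0.15 and CCNB1 by -0.26. In RNA of whole cultures, fewer cells in a phase and less RNA per cell cannot be told apart. None of 56 genes of G1/S and DNA replication was called (6 at an unadjusted p below 0.05, against 11.6% of all genes). Of the 56 differences 45 were positive, with a median of 0.10 that was 0.01 after quantile normalization (0.02 and -0.0039 for all genes). Their summed log2 values overlapped between the groups, at 329.6 to 343.2 in control and 335.8 to 345.9 with TNFα, so no shift of the list is claimed. CCND1 differed by 0.20 and CDKN1A by 0.34.

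Ribosome biogenesis leaned upward. Of 43 genes, 41 had a positive difference, against 54.9% of all genes, and the median was 0.34 against 0.02 for all genes. Of the 43, 3 rose (6.98%, against 0.997% of all genes called). The nucleolar protein NOLC1 went from 7.35, 7.12 and 7.44 to 8.08, 7.68 and 8.13 (0.66 ± 0.14, adjusted p = 0.0374), and the processing factor RRP12 and the helicase DDX21 rose by 0.63 ± 0.12 and 0.52 ± 0.11. The number called ranged from 0 to 8 over the 6 fits. NOLC1 and RRP12 lost their calls without control replicate 1 or 2 or TNF replicate 1 or 3 (up to 0.187 and 0.148), and DDX21 in every fit except that without TNF replicate 2 (up to 0.17). In the fit with the small nucleolar RNA covariate, none of the 43 was called. The reference genes GAPDH and ACTB differed by -0.03 and 0.24 and were not called.

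MicroRNA genes gave 2 calls, MIR4638 and MIR3926-2, from control means of 2.73 and 2.42 beside control array medians of 2.10 to 2.16. MIR4638 rose by 0.91 ± 0.18 (adjusted p = 0.0317) and lost its call in all 6 fits (up to 0.151). MIR3926-2 rose by 0.74 ± 0.14 (adjusted p = 0.0249) and lost its call without control replicate 1 or 2 or TNF replicate 1 or 3 (up to 0.125). MIR146A, an NF-κB target in other cells, was at 1.97, 2.43 and 1.69 in control and 2.55, 3.19 and 2.73 with TNFα (0.79 ± 0.20, adjusted p = 0.0985), and was chosen here after its values were seen.

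The same cytokine step was measured on 6 further arrays, in cells that also received apigenin, a plant flavone, at 40 µM (TNFα plus apigenin minus apigenin), none of them shared with the arrays above. There 43 genes were called (0.209%). Of the 160 genes that rose with TNFα alone, 152 had a positive difference with apigenin too, against 58.2% of all genes, and 30 were called; their median difference was 0.44. Of the 45 that fell, 37 had a negative difference, none was called, and the median was -0.20. The response was smaller with apigenin for 148 of the risen and all 45 of the fallen genes, and since these genes were called on TNFα alone, that count is given as a description. TNFAIP3 rose by 2.54 ± 0.15 with apigenin and TRAF1 by 2.45 ± 0.20, beside 3.12 and 1.96 without it.

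The difference between the responses was called for 11 genes (0.0535%). IL1A was at 1.79, 1.41 and 1.92 with apigenin and 2.37, 2.30 and 2.73 with both agents, a difference of 0.76 in place of 4.33 (difference of responses -3.57 ± 0.21, adjusted p = 4.67e-06). C3 stayed at 2.45 to 2.62 with apigenin and 2.47 to 2.62 with both (-2.29 ± 0.20, adjusted p = 0.0002). These 2 genes were called again in all 12 fits that left out 1 of the 12 arrays. CXCL8 still rose with apigenin present, by 2.27 ± 0.19, which was less than the 4.36 without it (-2.09 ± 0.28, adjusted p = 0.0218). This difference was called in 3 of those 12 fits. Apigenin alone put CXCL8 at 4.48, 3.72 and 4.23, above control by 0.88 (adjusted p = 0.00949), so part of the difference lies in that higher starting level. With both agents it was at 6.41, 6.32 and 6.51. MMP9 and CXCL11 (adjusted p = 0.0342 for each) were called in 2 of the 12, and CLDN1, CNTNAP1, IL24 and LOC100287834 in 1. VIPR1 fell without apigenin (-1.50) and differed by -0.33 with it; its level in apigenin alone was 4.56 to 4.95, a difference of -1.47 from control. SAMD9L differed by -0.68 without and 0.68 with apigenin, neither called on its own. Neither VIPR1 nor SAMD9L was called in any of the 12 fits (adjusted p up to 0.159 and 0.214).

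**Figure D4:**
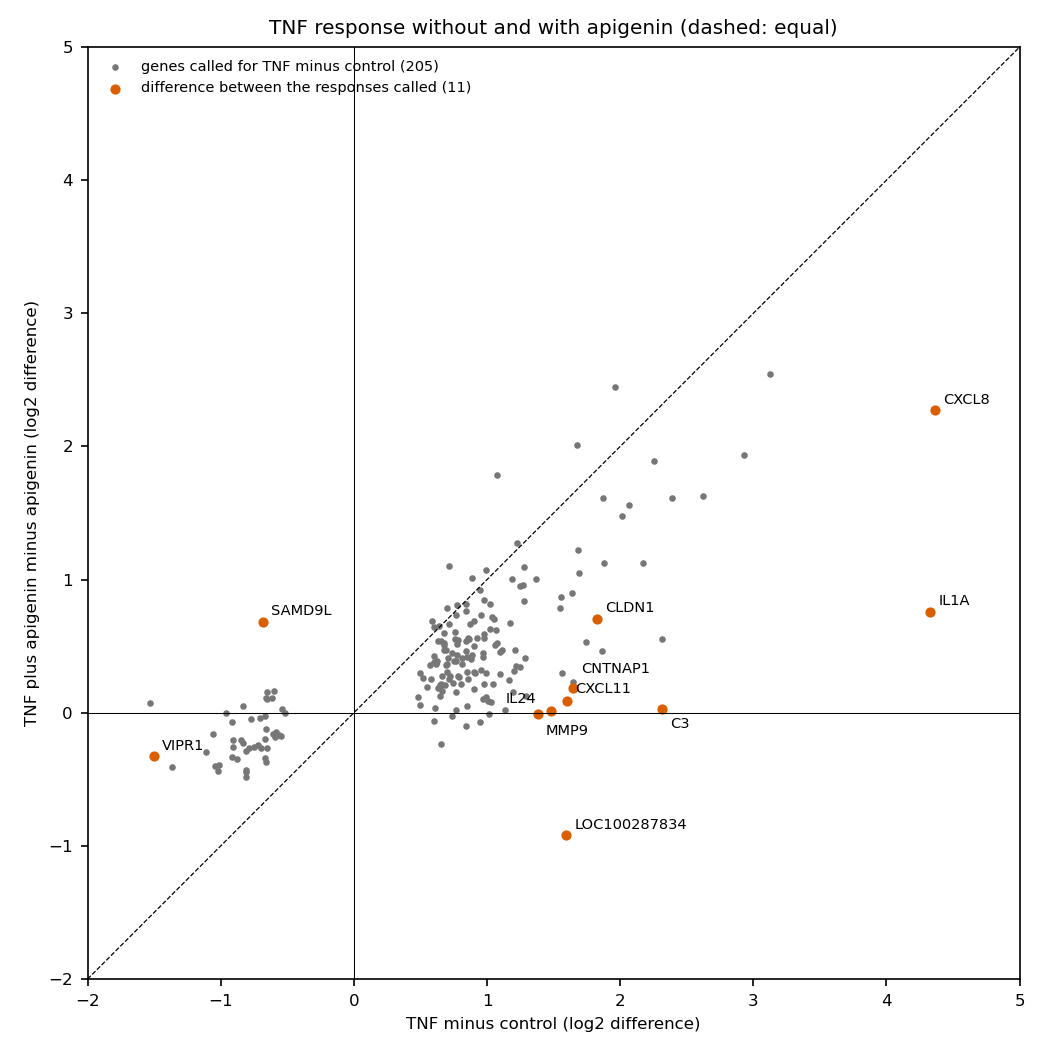
TNFα response in cells with apigenin (y axis, TNFα plus apigenin minus apigenin, log2 difference) against the response without it (x axis, TNF minus control, log2 difference) for the 205 called genes (grey); orange points are the 11 genes whose responses differed, and the dashed line marks equal responses. IL1A lies at 4.33 and 0.76, and C3 at 2.31 and 0.03.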

How the data were processed

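Per the labels' protocols, TRIzol-extracted total RNA of each sample was diluted to equal concentration and labelled for a whole-transcript array. The authors deposited log2 expression values per probe set. The submitters' processing notes name Affymetrix Expression Console; version, algorithm, normalization and genome build: not given in the sources used here.

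A probe set was kept when it had exactly 1 symbol and reached its array's 25th percentile (1.597 to 1.645) on at least 3 arrays. Symbols came from the platform's annotation, updated by gene identifier for 22569 of 23871 probe sets. The 549 genes with several kept probe sets were represented by their probe set of highest mean. In limma 3.58.1 (R 4.3.3), 1 mean per group was modelled over all 12 arrays and 4 groups, with 8 residual degrees of freedom and eBayes defaults. Every adjusted p is from limma, two-sided, Benjamini-Hochberg over 20572 genes, and ± gives its SE. Log2 differences understate the change of genes near the bottom of the scale; the number of arrays limits the precision. With 3 arrays against 3 an exact permutation test cannot go below p = 0.1. The fit was tested on simulated data for TNF minus control (20572 genes): it recovered 84% of changes of 1 and 99% of changes of 2 on the log2 scale, with 7 false calls. The simulated noise was independent between genes and arrays, without the spread that the real arrays share. These figures therefore check the fit and do not give the recovery or false calls in the real data.

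The members, the 53 gene lists (1136 genes tested) and the rule for named genes were chosen with earlier results of these data known. The rule takes the 16 largest rises and 16 largest falls among called genes that do not overlap between groups (without provisional, non-coding and pseudogene symbols), up to 5 called members of each list, 50 panel genes (9 not analysed here), genes called for the difference of responses, and called microRNA genes. Uncalled list members named beside these were chosen after their values were seen. Alternatives covered normalization, filters, the arrays fitted, the variance model, probe sets, the replicate number as a block and each array left out. The deviations of same-numbered control and TNFα arrays correlated at 0.065, 0.376 and 0.464, all of them positive. The main fit still took no pairs, because the labels do not say what equal numbers share. A spread shared by number therefore stays in its residual.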

Additional observations from a re-analysis of the deposited data

Results flagged for a closer look

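The TNFα response differed between cells without and with apigenin for 11 genes by the test of the difference itself (limma, adjusted p below 0.05). The response with apigenin minus that without it was -3.57 for IL1A, -2.51 for LOC100287834, -2.29 for C3, -2.09 for CXCL8, -1.51 for CXCL11, -1.47 for IL24, -1.46 for CNTNAP1, -1.39 for MMP9 and -1.12 for CLDN1. It was 1.37 for SAMD9L and 1.18 for VIPR1. LOC100287834, an uncharacterised locus, was at 9.64, 9.38 and 8.92 in control and 10.86, 10.42 and 11.44 with TNFα; its rise of 1.59 lost its call without TNF replicate 3 (adjusted p = 0.0501). Its direction turned with apigenin, where the difference was -0.92 (adjusted p = 0.4). CNTNAP1, a contactin-associated protein, rose by 1.65 ± 0.16 with TNFα alone and differed by 0.19 with apigenin. SAMD9L is a paralog of SAMD9, which fell with TNFα alone.

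Probe sets outside the comparisons also moved. In a fit over all probe sets, 22 of 21317 unnamed probe sets were called for TNF minus control (0.103%), 21 of them higher and 1 lower, with a largest rise of 2.91. Of 1719 probe sets with several symbols, 3 were called (0.175%), all higher.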

How the results depend on the processing

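No called gene changed sign under any alternative that was run, and 81 of the 205 calls held in all 6 fits without 1 array of the comparison. The cause of the changes below was not tested. Where arrays were left out, both their number and the arrays that remained changed. The 205 calls (160 higher, 45 lower) became 322 with quantile normalization (126 lower), 73 with only the 6 arrays (63 higher, 10 lower; all 73 among the 205), 85 without the arrays numbered 3 (77 and 8) and 632 with the replicate number as a block (489 and 143, all 205 included). Leaving out 1 array gave 98 to 314 calls, 80 to 252 higher and 13 to 62 lower. The 11 differences of responses became 3 with a variance trend and robust fit, 5 with the small nucleolar RNA median as a covariate, 2 without the arrays numbered 3, and 2 to 6 without 1 array. Of the 107 called named genes, 52 lost their call with only the 6 arrays, 53 without the arrays numbered 3, 20 with the small nucleolar RNA covariate and none with the replicate block. Of 12 arrays, 11 correlated best with an array of their own number, a hint from the data and not from the design. Across 2234 pairs of named gene and alternative, 331 lost and 15 gained a call.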

Other observations

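Further genes that changed and stood on none of the lists were picked after their values were seen, so they make up no tested group. SLIT2, a secreted guidance cue, rose by 1.22 (adjusted p = 0.00513), ROBO4, a roundabout receptor, by 0.97 (0.0025) and NAV3, a neuron navigator, by 1.23 (0.00202). The kinase gene NUAK2 rose by 1.64, the lipolysis inhibitor G0S2 by 1.28 and TNFAIP2 by 1.27. These 6 genes were called in all 6 fits that left out 1 array. The semaphorin SEMA4B rose by 0.78 and lost its call without control replicate 1 or TNF replicate 3 (adjusted p up to 0.0538). SEMA3C rose by 0.70 and was called again only without TNF replicate 1 (up to 0.157). The reelin gene RELN rose by 0.61 and lost its call without control replicate 1 or 2 or TNF replicate 1 or 3 (up to 0.154). GDF15, a stress-induced cytokine, fell (-0.81, adjusted p = 0.019) and lost its call without control replicate 2 or 3 or TNF replicate 1 or 3 (up to 0.107).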
